A study of Homo sapiens with 14 samples.

Results

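The 4 genes ZIC1, ZIC2, ZIC4 and ZIC5 were examined as 2 loci, because ZIC1 and ZIC4 lie side by side on chromosome 3 and ZIC2 and ZIC5 on chromosome 13. They are 4 of the 20007 protein-coding genes to which the same counting was applied. Each locus was the stretch from the first to the last base of its pair of genes in GENCODE release 44 (hg38) with 60 kb added at each end. The ZIC1/ZIC4 window ran over 244 kb (chr3:147326046-147570293) and the ZIC2/ZIC5 window over 144 kb (chr13:99902964-100046765). ZIC1 (ENSG00000152977.10, chr3:147393422-147510293, plus strand) and ZIC4 (ENSG00000174963.18, chr3:147386046-147406809, minus strand) overlap as annotated and are read in opposite directions. ZIC2 (ENSG00000043355.12, chr13:99981784-99986765, plus strand) and ZIC5 (ENSG00000139800.9, chr13:99962964-99971767, minus strand) are also divergent. A peak belonged to a locus when any part of it lay in the window.

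The data are ChIP-seq peak lists of the human embryonic stem cell (hESC) line WIBR3 in 2 culture conditions, with no genetic change between them. Primed cells were kept in the conventional medium with serum and FGF2, and naïve cells were reset from them in the 5i/L/A medium and expanded as a polyclonal culture, both on mouse feeder cells. Passaging also differed between the states, so medium and handling cannot be told apart. Each condition had 1 library each for BRG1 (SMARCA4) and BRM (SMARCA2), the alternative ATPases of the BAF chromatin remodelling complex, 1 for its scaffold subunit BAF155 (SMARCC1) and 2 for the transcription factor SOX2. The 2 SOX2 lists of a state had the same coordinates for all peaks and were counted as 1 sample, so no comparison below has a replicate check and no p-value is given.

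ZIC proteins are zinc finger transcription factors related to the GLI factors of Hedgehog signalling. They act in early ectoderm, in the patterning of the neural tube and the cerebellum and in the neural crest, and mutations of ZIC2 cause holoprosencephaly. ZIC2 is also known as a factor of the primed state of pluripotency. BAF complexes use ATP to move nucleosomes, and SOX2 binds DNA together with POU factors such as OCT4 in both pluripotent states. No RNA was measured in these files, so a peak says nothing here of how much a ZIC gene was expressed.

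The lists these values come from differed in length. On chromosomes 1 to 22, X and Y they held 57884 naïve and 15611 primed BRG1 peaks, 62338 and 58352 BAF155 peaks, 17413 and 167 BRM peaks, and 1940 and 9290 SOX2 peaks. Read depth was not used here, so where no peak is listed the protein may still have been present under the calling threshold. BRG1 and BAF155 peaks that touched or overlapped within a state were joined into BAF regions, and the windows of state markers named by the study followed their labels in these. KLF17 and SUSD2, markers of naïve cells, had 5 and 11 regions called in the naïve state alone against 0 and 1 called in the primed state alone, whereas SFRP2 and SOX11, markers of primed cells, had 0 and 0 against 3 and 1. The direction at SOX11 rests on 1 region, beside 3 regions called in both states. Over all chromosomes 45.4% of BAF regions were called in the naïve state alone and 28.5% in the primed state alone. The direction at KLF17 and SUSD2 is thus the commoner one among regions. More regions of the primed than of the naïve state alone were found in 21.2% of gene windows.

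A set of SOX2 sites is shown first, because SOX2 was called at these loci in primed cells alone. The 4 sequences below are 200 bp at the midpoints of primed SOX2 peaks in hg38, plus strand, none with an annotated exon base. They were picked as the site of highest fold over input, the site with BRG1 in both states, a site with calls in primed cells alone, and the site at ZIC2. Capitals mark the core of a SOX site (CATTGT or CTTTGT, or the reverse complement) or of a POU site (ATGCAAA or its reverse complement).
chr3:147397267-147397466, in ZIC4: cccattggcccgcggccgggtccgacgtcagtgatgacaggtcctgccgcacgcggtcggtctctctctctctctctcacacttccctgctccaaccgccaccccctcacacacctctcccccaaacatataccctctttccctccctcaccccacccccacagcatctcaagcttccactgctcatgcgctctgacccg
chr3:147378052-147378251, intergenic: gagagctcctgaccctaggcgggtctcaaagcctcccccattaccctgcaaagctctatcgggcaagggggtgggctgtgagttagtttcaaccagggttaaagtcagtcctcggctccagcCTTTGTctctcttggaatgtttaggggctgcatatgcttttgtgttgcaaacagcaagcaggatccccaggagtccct
chr3:147354749-147354948, in an intron of a long noncoding RNA gene: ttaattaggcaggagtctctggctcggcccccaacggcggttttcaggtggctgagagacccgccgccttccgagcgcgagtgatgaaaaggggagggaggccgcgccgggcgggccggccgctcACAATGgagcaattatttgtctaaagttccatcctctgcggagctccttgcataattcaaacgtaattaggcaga
chr13:99983894-99984093, in ZIC2: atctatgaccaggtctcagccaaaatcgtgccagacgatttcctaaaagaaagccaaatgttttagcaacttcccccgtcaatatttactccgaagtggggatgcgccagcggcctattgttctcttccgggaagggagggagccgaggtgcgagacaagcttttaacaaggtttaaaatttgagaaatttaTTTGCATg

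SOX2 was called at both loci in primed cells and at neither in naïve cells. The ZIC1/ZIC4 window had 7 primed SOX2 peaks (95% Poisson interval 2.81 to 14.4, for counting error only, as for all intervals here) and 0 naïve ones. The ZIC2/ZIC5 window had 2 primed SOX2 peaks (0.242 to 7.22) and 0 naïve ones. A count of 0 allows up to 3.69 peaks by the same exact interval. The naïve SOX2 list is the shorter one, and its nearest peaks lay 803 kb before and 2004 kb beyond the ZIC1/ZIC4 window and 216 kb before and 149 kb beyond the ZIC2/ZIC5 window. With the primed list held to its 1940 peaks of lowest q, the length of the naïve list, the primed counts were 1 and 0. Whether the length of the SOX2 lists reflects the libraries or the cells was not tested.

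These counts were read against all protein-coding genes with the same flanks. At least 1 primed SOX2 peak was found in 42.6% of gene windows, at least 2 in 16.5% and at least 7 in 0.28%, and 33.1% had primed SOX2 peaks without a naïve one. At least 1 naïve SOX2 peak was found in 13.2%. The ZIC1/ZIC4 window is longer than most, and per 100 kb it held 2.87 primed SOX2 peaks, with 127 of 20005 other gene windows above it. The ZIC2/ZIC5 window held 1.39 per 100 kb, with 1414 of 20003 above it. The SOX2 count at ZIC1/ZIC4 was thus in the upper tail of gene windows, and that at ZIC2/ZIC5 was not far into it.

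Each SOX2 peak had its own setting. At ZIC1/ZIC4 the peak of highest fold over input, 12.7, was chr3:147397105-147397629, within ZIC4 and less than 1 kb from an annotated start, and it stood in the top 9.45% of the primed SOX2 list. Next came chr3:147341657-147341995 with a fold of 8.22, in an intron of the long noncoding RNA gene ENSG00000243620 and 64.7 kb downstream of the ZIC4 start, past the 3′ end of that gene. In the same gene lay chr3:147354739-147354959 with a fold of 6.93. These outer sites were the farthest from a ZIC promoter.

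A peak at chr3:147388344-147388698 (fold 6.56) lay near the 3′ end of ZIC4. Another pair flanked the 5′ side of ZIC1, at chr3:147408182-147408514 (fold 6.08) and chr3:147408677-147408882 (fold 3.65), between the divergent canonical starts of ZIC1 and ZIC4. The intergenic peak chr3:147377976-147378328 had a fold of 4.17. The last peak and the one nearest to ZIC1 were among the weakest of the whole list, at ranks 8818 and 9106 of 9290 by fold, and the median fold of that list was 6.73.

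At ZIC2/ZIC5 the SOX2 peaks were of medium strength. One, chr13:99974374-99975080 with a fold of 6.94, lay between the divergent genes, 2.61 kb upstream of the ZIC5 start and within the long noncoding RNA gene ENSG00000288060. With 707 bp it was in the widest 1.27% of the primed SOX2 list. The other, chr13:99983811-99984176 with a fold of 6.73, lay inside ZIC2, 2.03 kb downstream of its start. A stronger peak with a fold of 13.6, chr13:99892150-99892616, was 10.3 kb outside the low edge of the window and is not counted.

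All 9 primed SOX2 peaks overlapped a primed BAF155 peak, where overlap means that at least 25% of either region is covered. In the whole primed SOX2 list 88.4% did, so the members' share is near the background. Primed BRG1 overlapped 4 of the 9, at chr3:147341657-147341995, at chr3:147377976-147378328 and at both sites of ZIC2/ZIC5, against 41.9% of the list. Only 1 of the 9, the intergenic chr3:147377976-147378328, overlapped a BAF region of the naïve state, against 41.6% of the list. None overlapped a naïve BRM peak, against 12% of the list. Of the 9, 4 were at promoters (midpoint within 1 kb of any annotated start) against 16.1% of the list. The list was not limited to windows drawn around genes, as the 9 were, so these 2 shares differ in setting.

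The SOX core was in 4 of 7 SOX2 windows of 200 bp at ZIC1/ZIC4 and in 0 of 2 at ZIC2/ZIC5, against 59.5% of the primed SOX2 list. The POU core was in 0 of 7 and 1 of 2, against 15.3%. The strongest SOX2 site of both loci, the first sequence above, had neither core in this window. CCTGCTG, a ZIC core, was in 0 of the 9, against 13.5%. In primed BAF155 windows CCTGCTG was in 3 of 18 at ZIC1/ZIC4 and in 0 of 13 at ZIC2/ZIC5, against 11.6%. GCC and GGC with 3 bases between them, the TFAP2 core, was in 1 of 7 and 1 of 2 SOX2 windows, against 5.86%, and GGGTGTG, the KLF core, was in 0 of the 9, against 3.23%. A match is a description of letters and not a binding site, and no SOX2 window held both a SOX and a POU core.

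**Figure D1:**
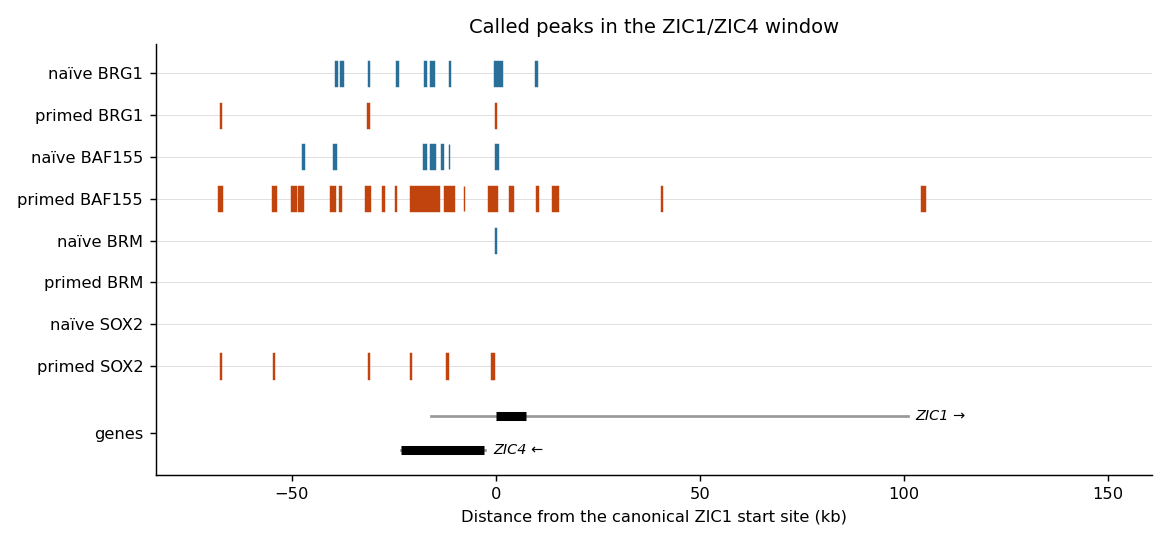
Called peaks over the ZIC1/ZIC4 window, with distance in kb from the canonical ZIC1 start on the x axis and 1 row per antibody and state (blue, naïve; red, primed; thin outlines added so that narrow peaks can be seen). Black bars are the canonical transcripts, grey lines the full annotated genes and arrows the direction of reading. The 18 primed BAF155 peaks include a block of 7054 bp over the 3′ part of ZIC4, the 7 primed SOX2 peaks lie at or to the left of the ZIC1 start, and the single naïve BRM peak sits on that start.

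BAF155, the scaffold subunit, went the same way at both loci. At ZIC1/ZIC4 there were 7 naïve peaks (2.81 to 14.4) over 4.29 kb and 18 primed peaks (10.7 to 28.4) over 23.7 kb, so the sequence under peaks was 5.53-fold longer in primed cells. At ZIC2/ZIC5 there were 4 naïve peaks (1.09 to 10.2) over 4.14 kb and 13 primed peaks (6.92 to 22.2) over 25.3 kb, 6.11-fold longer. Over all chromosomes the primed list covered 1.05-fold the sequence of the naïve list. More BAF155 peaks in primed than in naïve cells were found in 30.6% of gene windows.

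BRG1, the ATPase, had fewer peaks in primed cells at ZIC1/ZIC4 and nearly as many at ZIC2/ZIC5. At ZIC1/ZIC4 there were 9 naïve peaks (4.12 to 17.1) over 6.2 kb and 3 primed peaks (0.619 to 8.77) over 1.06 kb. At ZIC2/ZIC5 there were 6 naïve peaks (2.20 to 13.1) over 4.6 kb and 5 primed peaks (1.62 to 11.7) over 2.59 kb, so the counts were within each other's intervals. The primed BRG1 list is short everywhere and covered 0.183-fold the sequence of the naïve list, against 0.172-fold at ZIC1/ZIC4 and 0.562-fold at ZIC2/ZIC5. More BRG1 peaks in naïve than in primed cells were found in 87.3% of gene windows, so this direction is the common one. Within the short primed BRG1 list ZIC2/ZIC5 ranked high by coverage, with 603 of 20003 gene windows above its 1.80%. Its 5 peaks were weak calls, with a −log10 q of 1.24 to 2.37, where the lowest of the list was 1.01. More primed BAF155 together with more naïve BRG1 peaks were found in 23.5%. Whether the length of the primed BRG1 list reflects the library or the cells was not tested.

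**Figure D2:**
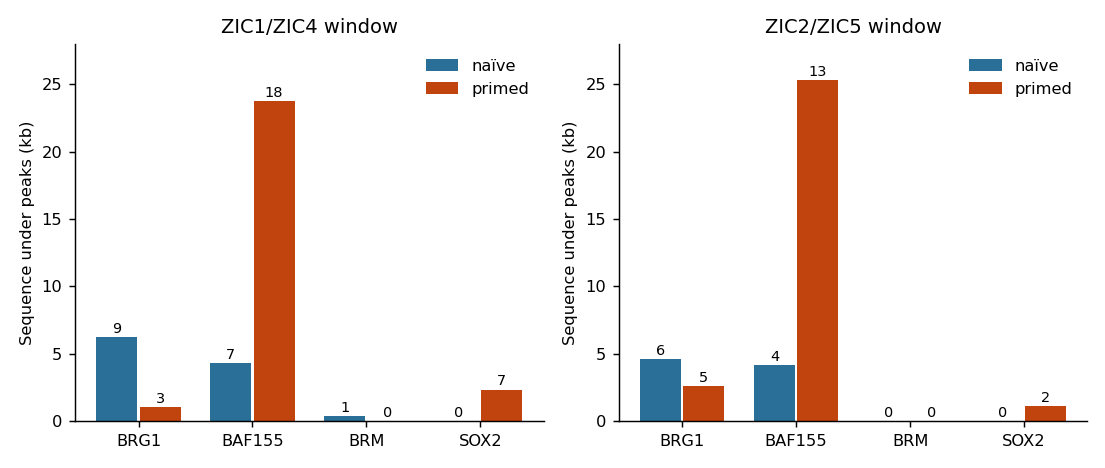
Sequence under called peaks in kb (bars) and number of peaks (digits above the bars) for each antibody in the ZIC1/ZIC4 window (left) and the ZIC2/ZIC5 window (right), naïve in blue and primed in red, 1 peak list per bar. BAF155 went from 4.29 to 23.7 kb and from 4.14 to 25.3 kb, while BRG1 went from 6.2 to 1.06 kb and from 4.6 to 2.59 kb.

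The BAF155 difference was set against every other protein-coding window. Primed minus naïve, the share of the window under BAF155 peaks was 7.96 percentage points at ZIC1/ZIC4 (9.71% primed, 1.76% naïve), and 36 of 20005 windows were above it, those of ZIC2 and ZIC5 among them. At ZIC2/ZIC5 it was 14.7 points (17.6% primed, 2.88% naïve), and 0 of 20003 windows not overlapping the locus were above it. The median window had -0.0038 points and the 95th percentile was 2.50 points. The naïve shares were close to the median of 2.28%. The primed share of ZIC2/ZIC5 had 12 of 20003 windows above it. That of ZIC1/ZIC4 had 514 of 20005 above it, so it was less extreme than its difference.

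**Figure D3:**
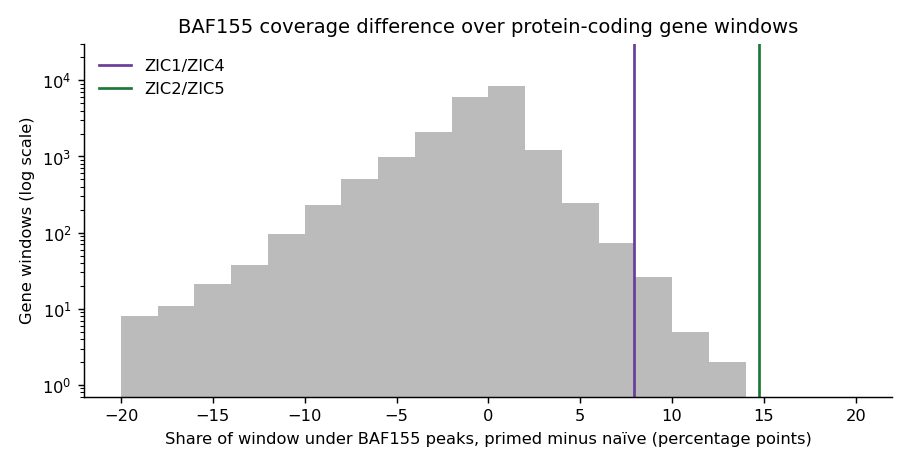
Number of protein-coding gene windows (log scale) by the difference in the share of the window under BAF155 peaks, primed minus naïve, in percentage points and in bins of 2 points, with the 20001 windows that overlap neither locus as grey bars. The vertical lines mark ZIC1/ZIC4 at 7.96 and ZIC2/ZIC5 at 14.7, the latter to the right of every bar.

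Much of the primed coverage lay in wide peaks. Of primed BAF155 peaks in general, 5.71% were 2000 bp or wider, and 3.59% of naïve ones were. At ZIC1/ZIC4 3 of 18 primed peaks were this wide and made up 49.7% of the covered sequence, and at ZIC2/ZIC5 6 of 13 made up 86.6%. No naïve BAF155 peak of either locus reached 2000 bp, with widths of 190 to 1085 bp at ZIC1/ZIC4 and 342 to 1803 bp at ZIC2/ZIC5.

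The widest block at ZIC1/ZIC4 was chr3:147388316-147395369, 7054 bp over the 3′ part of ZIC4 and the outermost annotated ZIC1 start, rank 31 of 58352 by width. A block of 2453 bp at chr3:147396682-147399134 followed inside ZIC4 and held the strongest SOX2 peak. Another of 2280 bp, chr3:147407497-147409776, covered the ZIC1 start and the pair of SOX2 peaks before it. All 3 contained primed SOX2 peaks and all 3 overlapped naïve BAF regions, so each lay over sequence that had a BAF call in naïve cells too.

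Of the 6 blocks at ZIC2/ZIC5, 5 lay close together from the 5′ part of ZIC5 to beyond ZIC2, while no primed BAF155 peak was called over the 6817 bp before them, which hold the 3′ part of ZIC5. The widest, chr13:99986536-99993258, was 6723 bp (rank 38) and began in the last part of ZIC2 and ran beyond its 3′ end. A block of 4819 bp (chr13:99977715-99982533, rank 166) covered the ZIC2 start, and one of 4098 bp (chr13:99968023-99972120, rank 285) covered the ZIC5 start. The 5 neighbouring blocks from the 5′ part of ZIC5 to the end of ZIC2 were 686 to 2254 bp apart. The remaining blocks were chr13:99974375-99976452 (2078 bp), which held the SOX2 peak between the genes, chr13:99983721-99985849 (2129 bp), which held the SOX2 peak inside ZIC2, and chr13:99955826-99957896 (2071 bp), downstream of ZIC5.

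Of the blocks at ZIC2/ZIC5 only 2, those at the ZIC2 and ZIC5 starts, overlapped a naïve BAF region, whereas 91.1% of all primed BAF155 peaks of this width did. Primed BRG1 overlapped 5 of the 9 wide blocks of both loci (76.7% of all such peaks) and primed SOX2 overlapped 5 (26.9%). The folds of the 9 blocks were 2.86 to 3.68, around the median of the primed BAF155 list, 3.28. The blocks were thus wide rather than high. Their G+C content was 47.1% to 69.1%, against a median of 59.8% for wide peaks of the list.

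**Figure D4:**
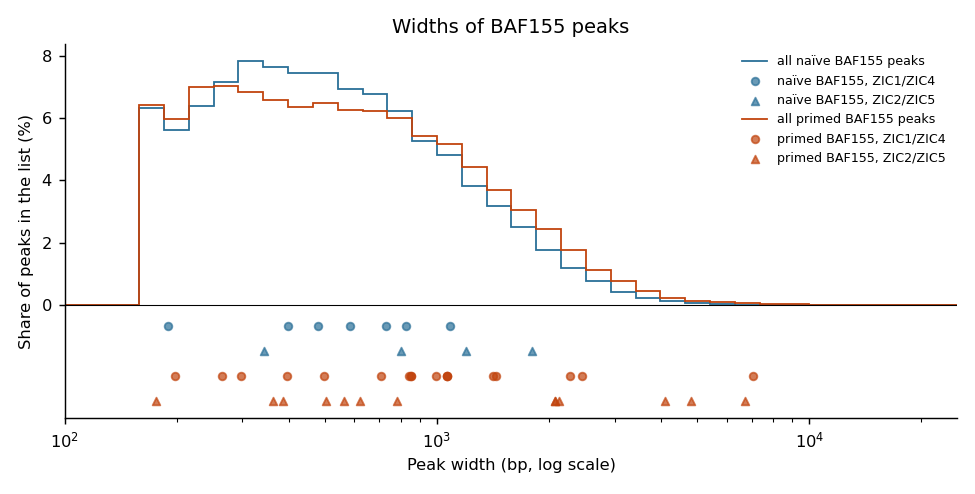
Widths of BAF155 peaks in bp on a log axis. The lines give the share of all naïve (blue) and primed (red) peaks per bin in percent, and the points under the zero line are the single peaks of the loci (circles, ZIC1/ZIC4; triangles, ZIC2/ZIC5), whose height has no scale. The naïve points end at 1803 bp, and 9 primed points lie at 2000 bp or more, the widest at 7054 and 6723 bp.

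The strongest BAF155 peaks were elsewhere. At ZIC1/ZIC4 the highest primed folds, 5.01 at chr3:147377365-147378425 and 4.98 at chr3:147341301-147342154, were at the intergenic and the far intronic SOX2 sites, which also carried primed BRG1. The highest primed BRG1 fold of the locus, 4.02 at chr3:147377903-147378306, was at the same intergenic site, where naïve BRG1 was called as well (chr3:147377927-147378309, fold 2.80). Its SOX2 peak, the second sequence above, was the only one of the 9 SOX2 peaks that itself overlapped BRG1 in both states, and no naïve BAF155 peak was called on it. The wider BAF region at the ZIC1 start also held SOX2 and BRG1 of both states, but not at the same bases. At ZIC2/ZIC5 the highest primed BAF155 fold was 3.75, at chr13:100019577-100020138, an intergenic peak 38.1 kb downstream of the ZIC2 start with no other call.

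In naïve cells the highest BRG1 fold was 3.89 at ZIC1/ZIC4 (chr3:147369904-147370485) and 3.40 at ZIC2/ZIC5 (chr13:99916763-99916925), and the highest BAF155 fold was 3.44 (chr3:147369531-147370113) and 3.16 (chr13:99980415-99982217). The first BRG1 and the first BAF155 peak overlapped, at the 5′ end of the long noncoding RNA gene ENSG00000243620. The last of these covered the ZIC2 start. The highest primed BRG1 fold at ZIC2/ZIC5, 3.58, was at chr13:99980240-99981394, just upstream of the same start.

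The starts of the 4 genes were occupied in different combinations. The canonical ZIC1 start (chr3, base 147409365) lay inside peaks of naïve BRG1 (chr3:147408897-147410843, fold 3.17), naïve BAF155 (chr3:147409072-147409801, fold 2.99), naïve BRM, primed BRG1 (chr3:147409132-147409485, fold 3.16) and primed BAF155 (fold 3.00). It thus had BAF calls in both states, and SOX2 was called in primed cells at 0.483 kb upstream. These BAF calls were weak, with a −log10 q from 1.17 (primed BRG1) to 2.32 (primed BAF155). None would be retained at a −log10 q of at least 3. The ZIC4 start (base 147406543) lay in no peak, and the nearest was primed BAF155 at 0.954 kb.

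The ZIC2 start (chr13, base 99981784) lay inside naïve BAF155 and primed BAF155 peaks (folds 3.16 and 3.68). BRG1 was called beside it, 0.489 kb away in naïve cells and 0.39 kb away in primed cells. The ZIC5 start (base 99971767) lay inside a primed BAF155 peak alone (fold 3.26), while naïve BAF155 ended 0.482 kb and naïve BRG1 0.739 kb downstream of it, and primed BRG1 was 1.14 kb downstream.

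The ZIC1 and ZIC5 promoters are printed because they differ in this way. The 250 bases before the start come from RefSeq (GRCh38.p14) and are written 5′ to 3′ along the gene, with capitals on each CCAAT box, a motif chosen after the sequences were seen.
ZIC1, chr3:147409115-147409364: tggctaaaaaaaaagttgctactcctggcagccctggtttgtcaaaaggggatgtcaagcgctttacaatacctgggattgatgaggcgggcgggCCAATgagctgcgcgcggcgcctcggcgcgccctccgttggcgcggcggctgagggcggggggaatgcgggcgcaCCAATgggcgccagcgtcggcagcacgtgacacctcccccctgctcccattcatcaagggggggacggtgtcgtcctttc
ZIC5, chr13:99971768-99972017, minus strand: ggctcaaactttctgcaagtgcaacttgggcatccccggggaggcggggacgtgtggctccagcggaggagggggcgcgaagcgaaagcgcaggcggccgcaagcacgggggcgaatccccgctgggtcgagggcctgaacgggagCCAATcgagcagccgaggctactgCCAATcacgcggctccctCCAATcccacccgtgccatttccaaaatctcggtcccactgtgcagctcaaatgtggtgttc
All 250 ZIC1 bases lay under naïve BRG1, naïve BAF155 and primed BAF155 peaks, 241 under naïve BRM and 233 under primed BRG1. All 250 ZIC5 bases lay under primed BAF155 and 0 under any naïve peak. CCAAT stood 2 times in the ZIC1 and 3 times in the ZIC5 promoter, and it was absent from the 250 bases before the ZIC2 start (chr13:99981534-99981783, G+C 75.6%). On either strand 32% of all 35116 promoters of this length held it. The SOX, POU and ZIC cores were in none of these 3 stretches, against 21.2%, 3.94% and 8.48% of all promoters. The CCAAT count depends on the start used. Before other annotated ZIC5 starts it was 0 (chr13:99971910-99972159) and 1 (chr13:99969173-99969422).

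Few BRM peaks were called at either locus. The naïve density at ZIC1/ZIC4 was 0.409 per 100 kb, against a median of 0.777 over gene windows. The single naïve BRM peak, chr3:147409124-147409466 with a fold of 3.41, spanned the ZIC1 start and lay within the naïve BRG1 peak there (interval of the count 0.0253 to 5.57). It was not retained at a −log10 q of at least 3 or a fold of at least 4. ZIC2/ZIC5 had 0 naïve BRM peaks (up to 3.69), and the nearest, chr13:100058407-100058680, was 11.6 kb beyond the window. At least 1 naïve BRM peak was found in 70.2% of gene windows. Primed BRM had 0 peaks at both loci in a list of 167.

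**Figure D5:**
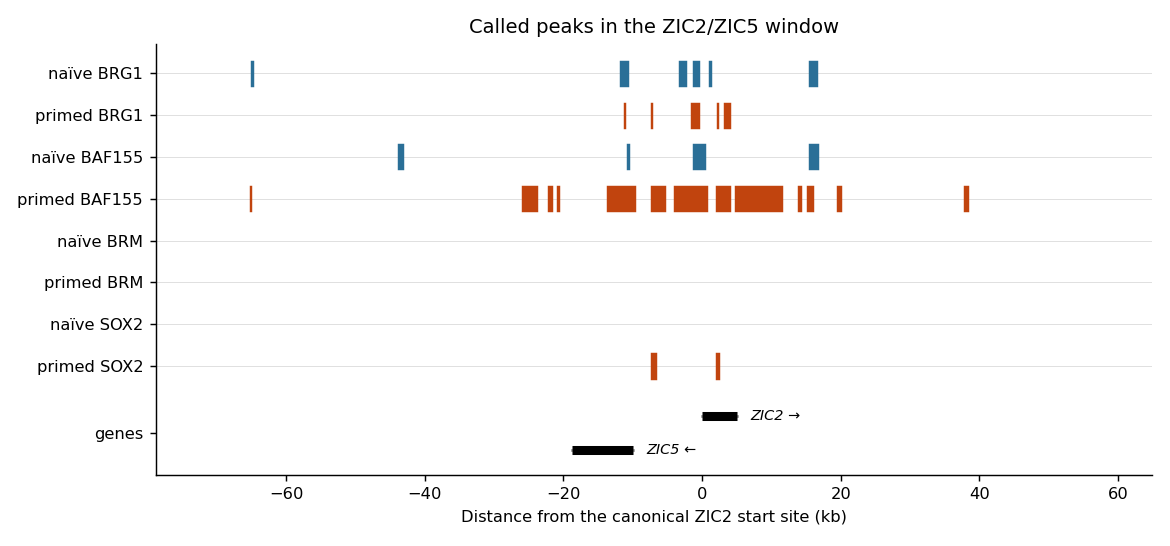
Called peaks over the ZIC2/ZIC5 window, with distance in kb from the canonical ZIC2 start on the x axis, drawn as for ZIC1/ZIC4. Of the 6 wide primed BAF155 blocks 5 lie from the 5′ part of ZIC5 to beyond the end of ZIC2 and 1 lies downstream of ZIC5, the 2 primed SOX2 peaks lie on either side of the ZIC2 start, and the rows of BRM and naïve SOX2 are empty.

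Merged BAF regions were sorted by state. A region was naïve-only or primed-only where it had no partner in the other state by the 25% rule, and common otherwise. Over all chromosomes 45.4% of regions were naïve-only, 28.5% primed-only and 26.1% common. ZIC1/ZIC4 had 20 regions, of which 2 were naïve-only, 10 primed-only (50%, 95% Clopper-Pearson interval 27.2% to 72.8%) and 8 common. ZIC2/ZIC5 had 16, of which 3 were naïve-only, 10 primed-only (62.5%, 35.4% to 84.8%) and 3 common. The interval of ZIC1/ZIC4 includes the share over all chromosomes and that of ZIC2/ZIC5 does not. This is a description and not a test, because neighbouring regions of 1 locus are not independent. The members were also chosen with earlier results of these data known. With BRG1 peaks alone the primed-only share was 10% (1 of 10) at ZIC1/ZIC4 and 33.3% (3 of 9) at ZIC2/ZIC5. With BAF155 peaks alone it was 68.4% and 71.4%. No share over all chromosomes was computed for either antibody alone, and the primed BRG1 list is short (15611 peaks against 57884 naïve). How far the shares rest on 1 antibody was thus not tested. More primed-only than naïve-only regions were found in 21.2% of gene windows.

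Placement of the regions is given as counts alone, with no share over all chromosomes beside it and no test between the loci. At ZIC1/ZIC4 none of the 10 was at a promoter, 7 were intronic and 3 intergenic, and 2 held a SOX2 peak. At ZIC2/ZIC5 2 were at promoters, 1 in an exon, 2 in introns and 5 intergenic, and 2 held a SOX2 peak. Of the common regions 5 of 8 at ZIC1/ZIC4 and 2 of 3 at ZIC2/ZIC5 were at promoters. The 5 naïve-only regions were small, 163 to 802 bp, and none was at a promoter. Of naïve BAF155 sequence 82.5% lay under primed BAF155 at ZIC1/ZIC4 and 62.8% at ZIC2/ZIC5, and of primed BAF155 sequence 14.9% and 10.3% lay under naïve BAF155. The last 2 shares are bounded by the longer primed sequence (5.53-fold and 6.11-fold the naïve one). No share over all chromosomes was computed for these overlaps either.

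The 60 kb limits fell in sparse sequence at ZIC1/ZIC4 and in busier sequence at ZIC2/ZIC5. The first primed BAF155 peak inside the low edge of the ZIC1/ZIC4 window was 15.3 kb from it (fold 4.98), and the first outside was 6.84 kb away (chr3:147319017-147319205, fold 3.49), where naïve BAF155 was also called. At the low edge of ZIC2/ZIC5 a primed BAF155 peak lay 13.6 kb inside (fold 2.89) and another 2.34 kb outside (fold 2.80). Beyond the high edge naïve BRG1, naïve BAF155 and primed BAF155 peaks came within 3.67, 3.48 and 3.75 kb.

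Relatives in the GLI-type zinc finger and Hedgehog group were read with the same flanks, as 9 genes. Primed SOX2 was called in all 9 windows (42.6% of all gene windows), naïve SOX2 in 3 (13.2%) and naïve BRM in 8 (70.2%). More primed than naïve BAF155 peaks were found in 5 (30.6%), more naïve than primed BRG1 peaks in 8 (87.3%) and more primed-only than naïve-only regions in 5 (21.2%). These windows ran from 132 to 644 kb, and a longer window is more likely to hold a peak. GLI3, a transcriptional effector of Hedgehog signalling, had 3 naïve and 21 primed BAF155 peaks with 0 naïve-only and 18 primed-only regions over 423 kb. GLI2, another effector, had 8 and 19 BAF155 peaks and 15 primed-only regions, and PTCH1, the Hedgehog receptor, had 9 and 12. SUFU, an inhibitor of GLI factors, went the other way with 24 and 11 BAF155 peaks and 22 naïve-only regions. Primed coverage by BAF155 was 0.743% to 9.90% of the window in these 9 genes.

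The windows with the most similar pattern were sought by the Euclidean distance over log2(1 + peaks per 100 kb) in the 7 lists other than primed BRM. For ZIC1/ZIC4 the closest 5 were GSX1 (distance 0.52), C20orf96 (0.70), PSMD6 (0.74), SMYD2 (0.78) and SOX1 (0.78). For ZIC2/ZIC5 they were TCF21 (0.49), VAX1 (0.52), SALL1 (0.56), BTF3 (0.65) and ENSG00000291314 (0.74). GSX1 had 4 naïve and 10 primed BAF155 peaks with 4 primed SOX2 peaks, and VAX1 had 4 and 10 with 2.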

How the data were processed

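ChIP-seq of WIBR3 hESCs gave 10 peak lists, 1 per antibody library. The 4 inputs served the authors in peak calling. As the methods of the study describe, reads were mapped to hg38 with Bowtie2 (2.3.4 in the submitters' processing notes, which also name FastQC 0.10.1 and SAMtools 0.1.19), and MACS2 called SOX2 as narrow and BAF subunits as broad peaks against input. BAF libraries were single-end and SOX2 libraries paired-end. Per the authors' peak caller, 7 deposited lists give a score, a fold enrichment over input (a linear ratio) and −log10 of p and q. Primed BRM and the second SOX2 lists hold positions alone. Broad calling joins nearby enriched stretches, so widths depend on it. The second SOX2 list of each state repeats the first (1941 of 1941 naïve and 9291 of 9291 primed coordinates the same), and whether libraries were pooled is not given in the sources used here. Depth behind the lists was not used here.

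Peaks were assigned to a window when any part of them lay in it, on chromosomes 1 to 22, X and Y. Overlap needed 25% of either region. Distances used Ensembl canonical starts of GENCODE 44. Intervals are exact Poisson (counts) or Clopper-Pearson (shares) at 95% and cover counting error only. Motifs were searched on both strands of 200 bp at midpoints in hg38, with all peaks of the list as background. Percentages of gene windows are over 20007 protein-coding genes, which overlap one another. Named were all SOX2 and naïve BRM peaks of a locus, the highest-fold peak per BRG1 and BAF155 list, the nearest peak to each start and the peaks beside the window limits. The wide BAF155 peaks, a width limit of 2000 bp and the CCAAT box were chosen after their values were seen. Members and lists were chosen with earlier results of these data known. Other settings that were tried changed the flank, the fold and q limits, the overlap rule, the antibody and the list length. Python 3.11.15, pandas 2.3.3, numpy 2.4.6, scipy 1.17.1 and bedtools 2.31.1 were used, and the overlap code was tested on simulated data.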

Additional observations from a re-analysis of the deposited data

Results flagged for a closer look

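Peak counts of 2 subunits of the same complex differed in opposite directions between the states, although BRG1 did so by a single peak at ZIC2/ZIC5. At ZIC1/ZIC4 BAF155 had 11 more peaks in primed than in naïve cells (7 naïve, 18 primed), while BRG1 went from 9 naïve to 3 primed peaks. At ZIC2/ZIC5 BAF155 had 9 more (4 naïve, 13 primed), while BRG1 had 6 naïve peaks (95% Poisson interval 2.20 to 13.1) and 5 primed peaks (1.62 to 11.7), which gives no direction beyond counting error. Set against list length the ZIC2/ZIC5 value turns, since primed BRG1 covered 0.562-fold the naïve sequence there and 0.183-fold over all chromosomes. The primed BRG1 calls there were weak, with a −log10 q of 1.24 to 2.37. With 1 library per antibody and state the difference between the subunits was not tested. The same combination of directions was found in 23.5% of gene windows, and the primed BRG1 list is short over all chromosomes (15611 peaks against 57884 naïve).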

How the results depend on the processing

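Leaving aside values that the lists fix in advance (identical SOX2 lists, or a count of 0 under a narrower setting), 20 of 30 alternative values stayed within the interval of the reported share or within 1.5 times the reported count, and 10 did not. The primed-only share of BAF regions at ZIC1/ZIC4 (50% as reported) was 75% when −log10 q had to reach 3, 100% of 4 regions when the fold had to reach 4, and 10% for BRG1 alone. At ZIC2/ZIC5 (62.5%) it was 88.9% under the q limit and 33.3% for BRG1 alone, and no region was left under the fold limit, so that setting gave no value. No share over all chromosomes was computed under these settings, so the values cannot be read against the 28.5% reported without them. Median folds were higher in the primed lists in general (BAF155 3.28 against 2.89, BRG1 3.54 against 2.93). Flanks of 20 and 100 kb, the overlap of 50% of both regions, BAF155 alone and lists of equal length gave 43.8% to 68.4% at ZIC1/ZIC4 and 54.2% to 71.4% at ZIC2/ZIC5.

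The naïve BRM count at ZIC1/ZIC4 went from 1 to 0 with the q limit and to 0 with the fold limit, and at ZIC2/ZIC5 it went from 0 to 1 with flanks of 100 kb. With the primed SOX2 list held to the 1940 peaks of the naïve one, primed SOX2 counts went from 7 to 1 at ZIC1/ZIC4 and from 2 to 0 at ZIC2/ZIC5, beside 0 naïve peaks. Leaving out either SOX2 replicate gave 7 to 7 and 2 to 2, because the lists are the same. No paired analysis was possible because the 2 SOX2 lists of a state have identical coordinates and the other groups have 1 library. The causes of these shifts were not tested beyond what the settings change. Peaks near the calling threshold, and differences in depth between libraries, limit every count.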

Other observations

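Downstream of ZIC1 the lists of both states had no call over long stretches. After the last naïve BRG1 peak of the ZIC1/ZIC4 window, at chr3:147419027-147419464, the next lay 710 kb beyond the window. Primed BRG1 ended earlier, at chr3:147409132-147409485, and its next peak lay 364 kb beyond the window. The next primed SOX2 peak lay 277 kb beyond it. Naïve BAF155 ended at chr3:147409072-147409801, with its next peak 710 kb beyond the window. Primed BAF155 was called at chr3:147449839-147450102 (fold 4.01), within an intron of a long ZIC1 transcript, and at chr3:147513680-147514528 (fold 4.07), past the end of the annotated gene. Both were small, 264 and 849 bp, and carried no SOX2, BRG1 or BRM call.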
